A study of Homo sapiens with 12 samples.

Results

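The insulin and insulin-like growth factor (IGF) signalling genes examined here were IGF1R, INSR, IGF2R, IRS1, IRS2, IGFBP2, IGFBP4, IGFBP5 and GRB10. They were chosen by symbol, as 9 of the 60612 named rows of the count table, and all 9 passed the filter on low counts that left 11803 genes for testing. Libraries were made with the QuantSeq 3′ kit from wild-type CAMA-1, an established ER-positive line of human breast cancer, ER being the oestrogen receptor. Cells were kept in serum-supplemented RPMI medium and treated for 5 days with DMSO, with the CDK4/6 inhibitor abemaciclib at 100 nM, with the ER degrader fulvestrant at 5 nM, or with both drugs, for which the labels do not restate the doses. Each of the 4 groups had 3 biological replicates of this single line.

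IGF1R and INSR are related receptor tyrosine kinases that bind IGF1, IGF2 and insulin, and both recruit the docking proteins IRS1 and IRS2, which pass the signal to PI3K, AKT and mTOR. IGF2R, the cation-independent mannose-6-phosphate receptor, has no kinase and carries IGF2 to lysosomes. IGFBP2, IGFBP4 and IGFBP5 are secreted proteins that hold IGFs outside the cell, and GRB10 is an adaptor that restrains the activated receptors. In breast cancer the axis is known for its link to ER, since IGF1R, IRS1 and IGFBP4 are long-described oestrogen-responsive genes.

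In these libraries the members did not move as a block. IGF1R rose with abemaciclib and fell with fulvestrant, and its combination libraries overlapped those of fulvestrant. INSR, IGF2R and IGFBP5 rose in each treated group. IRS1 and IRS2 fell in each treated group. IGFBP4 fell wherever fulvestrant was present, IGFBP2 rose in the combination, and GRB10 was the steadiest of the 9. In the test of abemaciclib against DMSO, 4 members were called higher, where 20.5% of all genes tested were, and 2 were called lower, where 20.7% were (quasi-likelihood F test of edgeR, with p values adjusted by Benjamini-Hochberg over all genes and a threshold of 0.05). Fulvestrant against DMSO gave 3 higher, against 25.3% of all genes, and 4 lower, against 25.7%. The combination against DMSO gave 4 higher, against 27.7% of all genes, and 5 lower, against 27.5%. The median log2 fold change of the 9 was 0.22, 0.01 and -0.27 in the 3 comparisons, beside medians between 0.00046 and 0.010 for all genes tested. These 3 comparisons share the DMSO libraries.

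The upstream sequences of 4 members are shown because these members went in different directions: IGF1R and IGFBP4 fell with fulvestrant, and INSR and IGFBP5 rose with it. Each run is the 250 bases before the RefSeq start of the gene on GRCh38.p14, read 5′ to 3′ on the strand of the gene. Capitals mark the box GGGCGG that is typical of SP1 binding, on either strand, with overlapping boxes run together.
IGF1R (chr15:98648289-98648538, plus strand): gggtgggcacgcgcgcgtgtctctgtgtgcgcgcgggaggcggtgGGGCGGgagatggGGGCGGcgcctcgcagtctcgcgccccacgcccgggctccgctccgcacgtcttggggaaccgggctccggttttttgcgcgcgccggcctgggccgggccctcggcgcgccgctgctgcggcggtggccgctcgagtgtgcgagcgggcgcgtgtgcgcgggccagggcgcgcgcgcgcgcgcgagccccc
INSR (chr19:7294415-7294664, minus strand): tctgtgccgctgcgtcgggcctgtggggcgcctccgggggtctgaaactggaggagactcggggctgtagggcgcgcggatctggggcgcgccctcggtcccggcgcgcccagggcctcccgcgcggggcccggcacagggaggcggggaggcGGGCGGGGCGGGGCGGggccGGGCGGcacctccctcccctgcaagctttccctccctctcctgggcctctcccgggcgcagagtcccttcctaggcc
IGFBP4 (chr17:40443200-40443449, plus strand): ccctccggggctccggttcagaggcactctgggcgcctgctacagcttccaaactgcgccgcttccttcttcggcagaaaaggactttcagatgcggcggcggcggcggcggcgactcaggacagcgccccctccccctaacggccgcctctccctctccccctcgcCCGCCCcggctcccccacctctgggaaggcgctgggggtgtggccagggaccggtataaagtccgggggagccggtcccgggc
IGFBP5 (chr2:216695550-216695799, minus strand): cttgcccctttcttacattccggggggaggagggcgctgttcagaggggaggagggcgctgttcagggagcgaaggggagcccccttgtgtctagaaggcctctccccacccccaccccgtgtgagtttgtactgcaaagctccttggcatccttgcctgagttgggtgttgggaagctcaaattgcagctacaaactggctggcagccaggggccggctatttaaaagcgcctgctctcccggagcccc
The windows of IGF1R and INSR are 81.2% and 78.4% G plus C, those of IGFBP4 and IGFBP5 are 71.6% and 61.2%, and the median of all 35116 RefSeq windows is 58%. The box GGGCGG occurs 2 times for IGF1R, 4 times for INSR with overlaps, 1 time for IGFBP4 and not at all for IGFBP5, and 42.6% of all windows hold it. The oestrogen response element GGTCANNNTGACC was found in none of the 4, against 0.0399% of all windows, and its half-site GGTCA was also in none of them, against 32.6%. Of the other members, IGF2R holds 2 half-sites, and IGFBP2 and GRB10, which have several RefSeq starts, hold 1 and 2 in the window of a single start. The FOXO core GTAAACA (2.98% of all windows) and the E2F-like sequence TTTCGCGC (0.439%) were in none of the 9 genes' windows, while TATAAA (10.7%) lies 29 bases before the start of IGFBP4 and occurs 2 times in a window of GRB10. A match of letters is not a bound site, and the absence of one says nothing about regulation from outside these windows.

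Total counts were between 3299119 and 5164667 per library, and each of the 12 libraries correlated best with one of its own group. Levels are given as CPM, that is, read counts scaled to a common library size. Because reads come from the 3′ end of each transcript whatever its length, CPM were also compared between genes. Whether the genes were captured and counted equally well was not checked, so such comparisons are of reads. Both genes used to check the treatments moved. GREB1, an ER target, stood at 81.1 ± 4.43 CPM in DMSO, 127.3 ± 4.57 with abemaciclib, 4.62 ± 0.775 with fulvestrant and 7.68 ± 1.05 in the combination (mean ± SD, n = 3). CCNA2, a cyclin of S and G2 phase, stood at 94.1 ± 3.17, 8.38 ± 0.376, 6.97 ± 1.53 and 0.145 ± 0.128 CPM. All 7 luminal markers examined were expressed, with ESR1 between 81.5 and 102.7 CPM in the group means. Markers of basal cells, leukocytes and endothelium had group means of at most 0.386 CPM, and of the fibroblast markers COL1A1 had 16.1 to 22.8 CPM while COL1A2 and PDGFRB had no reads. In bulk RNA a lower level can come from fewer cells expressing a gene or from less RNA per cell, and these cannot be told apart.

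The members differed widely in abundance. IGFBP5 ranked between the 8th and the 10th most abundant gene in each group and took 0.659% of all reads in DMSO, 0.807% with abemaciclib, 1.09% with fulvestrant and 0.967% in the combination. In DMSO it was followed by IGFBP2 (179.9 ± 25.2 CPM) and IGFBP4 (167.9 ± 13.7), whose libraries overlapped. GRB10 came next (62.4 ± 1.55 CPM), then INSR (31.8 ± 6.00) and IGF2R (29.2 ± 1.71), which overlapped each other. IRS1 (19.2 ± 2.17 CPM), IRS2 (10.7 ± 2.49) and IGF1R (6.98 ± 0.819) were the lowest, in that order and without overlap. The order changed with fulvestrant. There IGFBP4 (51.8 ± 4.02 CPM) lay between INSR (52.8 ± 5.08) and IGF2R (49.9 ± 12.2) with overlapping libraries, and IGF1R (1.43 ± 1.45 CPM) overlapped IRS2 (3.21 ± 1.88).

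**Figure D1:**
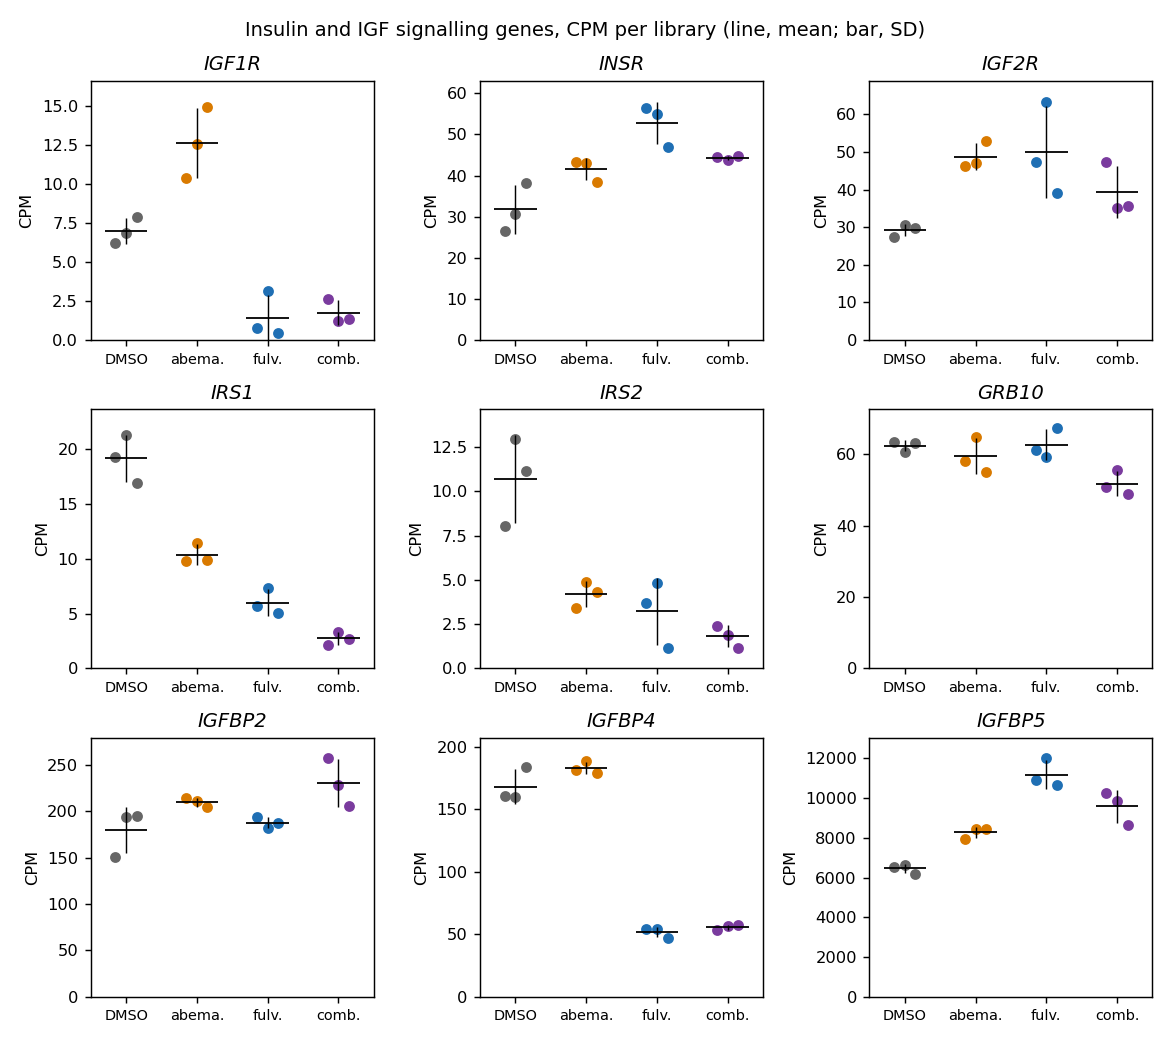
Each panel shows the CPM of a gene (vertical axis, from 0) in the 3 libraries of each treatment group, with a line at the mean and a bar of ± 1 SD, cut off at 0 in the IGF1R panel. IGF1R and IGFBP4 are low in both groups with fulvestrant, IRS1 and IRS2 are low in all treated groups, and IGFBP5 is highest with fulvestrant, at 10649 to 12004 CPM.

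Among the receptors, IGF1R (chromosome 15, 98648539 to 98964530, GRCh38) had 6.23, 6.84 and 7.85 CPM in the DMSO libraries and 10.4, 12.6 and 14.9 CPM with abemaciclib. With fulvestrant it had 0.741, 3.10 and 0.456 CPM, and in the combination 2.65, 1.24 and 1.36 CPM. Every abemaciclib library was above every DMSO library and every library with fulvestrant was below, while the fulvestrant and combination libraries overlapped. These levels rest on few reads, 21 to 38 in DMSO, 52 to 59 with abemaciclib, 2 to 11 with fulvestrant and 6 to 11 in the combination, and reads are not counted as independent molecules. The log2 fold change was 0.83 ± 0.28 (SE) with abemaciclib (adjusted p 0.0187), -2.36 ± 0.42 with fulvestrant (3.4e-05) and -2.03 ± 0.38 in the combination (6.5e-05). The rise with abemaciclib passed in 6 of 11 alternatives. It was lost with DESeq2 (0.84, adjusted p 0.0614) and without DMSO replicate 1 (0.77), DMSO replicate 2 (0.81), abemaciclib replicate 2 (0.84) or abemaciclib replicate 3 (0.71), the last with an adjusted p of 0.0917. The falls held in all 11 alternatives, with log2 fold changes from -3.51 to -1.91 for fulvestrant.

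INSR (chromosome 19, 7112255 to 7294414) had 26.4, 30.6 and 38.2 CPM in DMSO, 43.2, 43.0 and 38.4 CPM with abemaciclib, 56.3, 55.0 and 46.9 CPM with fulvestrant and 44.5, 43.8 and 44.7 CPM in the combination. DMSO replicate 3 nearly reached the lowest abemaciclib library, and the other treated groups lay clear of DMSO. INSR rose by 0.38 ± 0.13 on the log2 scale with abemaciclib (SE; adjusted p 0.0190), by 0.72 ± 0.13 with fulvestrant (2.8e-05) and by 0.47 ± 0.13 in the combination (0.0026). The first of these calls was lost without DMSO replicate 1 (0.28, adjusted p 0.108), DMSO replicate 2 (0.34), abemaciclib replicate 1 (0.35) or abemaciclib replicate 2 (0.36). The other calls held in all 12 alternatives.

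IGF2R (chromosome 6, 159969082 to 160113507) had 27.3, 30.6 and 29.8 CPM in DMSO, 46.2, 47.0 and 52.8 CPM with abemaciclib, 47.4, 63.2 and 39.2 CPM with fulvestrant and 47.4, 35.2 and 35.7 CPM in the combination. All treated libraries were above all DMSO libraries, and the fulvestrant libraries spread the most. IGF2R rose by 0.73 ± 0.15 (SE; adjusted p 3.6e-04) with abemaciclib, by 0.76 ± 0.15 (1.7e-04) with fulvestrant and by 0.42 ± 0.15 (0.0223) in the combination, on the log2 scale. The combination call was lost with DESeq2 (0.41, adjusted p 0.0587), without DMSO replicate 1 (0.38, 0.0669) and without combination replicate 1 (0.28, 0.149), which was the highest of its group.

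The balance between the kinase receptors shifted with these changes. IGF1R reads were 19.1%, 18.3% and 17.0% of IGF1R plus INSR reads in the DMSO libraries and 19.4%, 22.6% and 28.0% with abemaciclib. With fulvestrant they were 1.30%, 5.34% and 0.962%, and in the combination 5.61%, 2.75% and 2.95%. Every library with fulvestrant was thus below every library without it. The highest upper bound of a Wilson 95% interval among the libraries with fulvestrant was 9.77% and the lowest lower bound among the others was 12.7%. These intervals cover counting error only. In two-sided exact permutation tests each group with fulvestrant differed from each group without it at p = 0.1 (0.164 adjusted over the 18 share comparisons made), the smallest that groups of 3 allow, and the combination against fulvestrant gave p = 0.5 (0.643 adjusted).

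**Figure D2:**
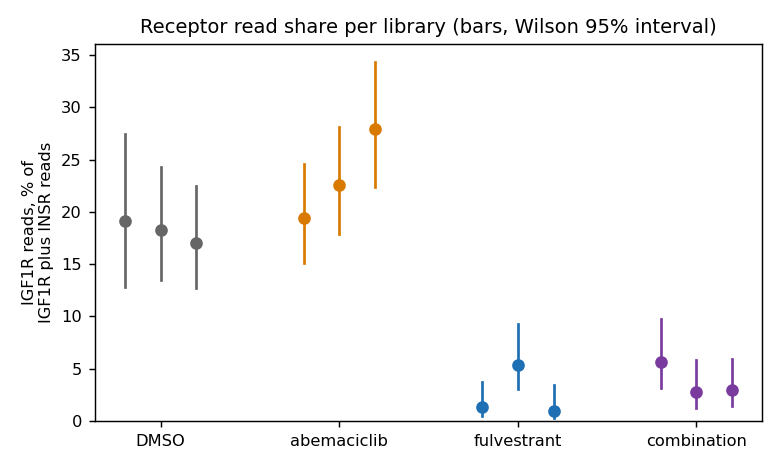
Points show IGF1R reads as a percentage of IGF1R plus INSR reads in each library (vertical axis, percent), by treatment group, and bars are Wilson 95% intervals for counting error. The 6 libraries without fulvestrant sit between 17.0% and 28.0%, and the 6 with it between 0.962% and 5.61%.

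Among the docking proteins, IRS1 (chromosome 2, 226731312 to 226799820) had 19.3, 21.3 and 16.9 CPM in DMSO, 9.80, 11.5 and 9.85 CPM with abemaciclib, 5.68, 7.33 and 5.01 CPM with fulvestrant and 2.17, 3.31 and 2.72 CPM in the combination. The 4 groups did not overlap. IRS1 fell by 0.88 ± 0.19 (SE; adjusted p 4.8e-04) with abemaciclib, by 1.69 ± 0.21 (1.7e-07) with fulvestrant and by 2.79 ± 0.23 (7.6e-11) in the combination, on the log2 scale, and these calls held in all 11 alternatives. In counts this was 65 to 112 reads per library in DMSO and 9 to 16 in the combination.

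IRS2 (chromosome 13, 109752695 to 109786583) had 8.01, 12.9 and 11.2 CPM in DMSO, 3.40, 4.86 and 4.30 CPM with abemaciclib, 3.71, 4.80 and 1.14 CPM with fulvestrant and 2.41, 1.86 and 1.17 CPM in the combination. Every treated library was below every DMSO library, while fulvestrant overlapped both other treated groups. Its log2 fold changes were -1.38 ± 0.31 (SE; adjusted p 8.1e-04) with abemaciclib, -1.79 ± 0.34 (6.2e-05) with fulvestrant and -2.60 ± 0.36 (6.7e-07) in the combination, all called in each of 11 alternatives. IRS2 reads made up 35.6% ± 5.51 of IRS1 plus IRS2 reads in DMSO, 28.6% ± 2.49 with abemaciclib, 32.5% ± 12.1 with fulvestrant and 39.5% ± 11.7 in the combination (mean ± SD, n = 3). In this share the libraries of every pair of groups overlapped.

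GRB10 (chromosome 7, 50590063 to 50793462) had 63.5, 60.6 and 63.0 CPM in DMSO, 58.2, 64.9 and 55.1 CPM with abemaciclib, 61.3, 59.2 and 67.5 CPM with fulvestrant and 50.8, 55.6 and 48.9 CPM in the combination. Both single-drug groups overlapped DMSO and the combination lay below it. The log2 fold change was -0.07 with abemaciclib (95% interval -0.28 to 0.14, adjusted p 0.621) and 0.01 with fulvestrant (-0.20 to 0.22, adjusted p 0.944). In the combination GRB10 fell by 0.27 ± 0.10 (SE; adjusted p 0.0273). That call was lost with no filter on low counts (-0.26) and without DMSO replicate 1 (-0.26), DMSO replicate 3 (-0.25), combination replicate 1 (-0.25) or combination replicate 3 (-0.22, adjusted p 0.107).

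The binding proteins divided. IGFBP4 (chromosome 17, 40443450 to 40457725) had 160.6, 159.4 and 183.8 CPM in DMSO, 181.3, 188.1 and 178.6 CPM with abemaciclib, 54.1, 54.2 and 47.2 CPM with fulvestrant and 53.4, 56.4 and 57.3 CPM in the combination. DMSO overlapped abemaciclib, fulvestrant overlapped the combination, and a wide gap lay between these pairs. IGFBP4 fell by 1.70 ± 0.09 (SE; adjusted p 9.2e-15) with fulvestrant and by 1.59 ± 0.09 (1.3e-14) in the combination. With abemaciclib alone the log2 fold change was 0.12 (95% interval -0.05 to 0.29, adjusted p 0.253).

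IGFBP5 (chromosome 2, 216672105 to 216695549) had 6558, 6635 and 6205 CPM in DMSO, 7968, 8433 and 8425 CPM with abemaciclib, 10913, 12004 and 10649 CPM with fulvestrant and 10255, 9874 and 8653 CPM in the combination. The 4 groups did not overlap, and the order was DMSO, abemaciclib, combination, fulvestrant. IGFBP5 rose by 0.36 ± 0.08 (SE; adjusted p 4.4e-04), 0.79 ± 0.08 (1.4e-09) and 0.57 ± 0.08 (3.9e-07) on the log2 scale with abemaciclib, fulvestrant and both, and each call held in all 12 alternatives. With at least 22096 reads per library it is the most precisely counted member. IGFBP4 reads were 2.54% ± 0.294 of IGFBP4 plus IGFBP5 reads in DMSO, 2.16% ± 0.0762 with abemaciclib, 0.461% ± 0.0282 with fulvestrant and 0.581% ± 0.0706 in the combination (mean ± SD, n = 3), and no 2 groups overlapped.

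IGFBP2 (chromosome 2, 216632828 to 216664436), which lies next to IGFBP5 on the opposite strand, had 150.8, 194.0 and 194.9 CPM in DMSO, 214.1, 211.5 and 204.7 CPM with abemaciclib, 194.5, 181.9 and 187.8 CPM with fulvestrant and 258.2, 228.3 and 206.0 CPM in the combination. DMSO replicate 1 was low, the fulvestrant libraries lay within the DMSO range, and the other treated libraries lay above it. IGFBP2 rose by 0.35 ± 0.09 (SE; adjusted p 0.0021) in the combination. The log2 fold change was 0.22 ± 0.09 (adjusted p 0.0614) with abemaciclib and 0.06 (95% interval -0.13 to 0.25, adjusted p 0.624) with fulvestrant. The abemaciclib value passed in 4 of 12 alternatives, which were no filter on low counts, a fit to only the groups compared, and leaving out DMSO replicate 2 (0.28) or DMSO replicate 3 (0.29).

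**Figure D3:**
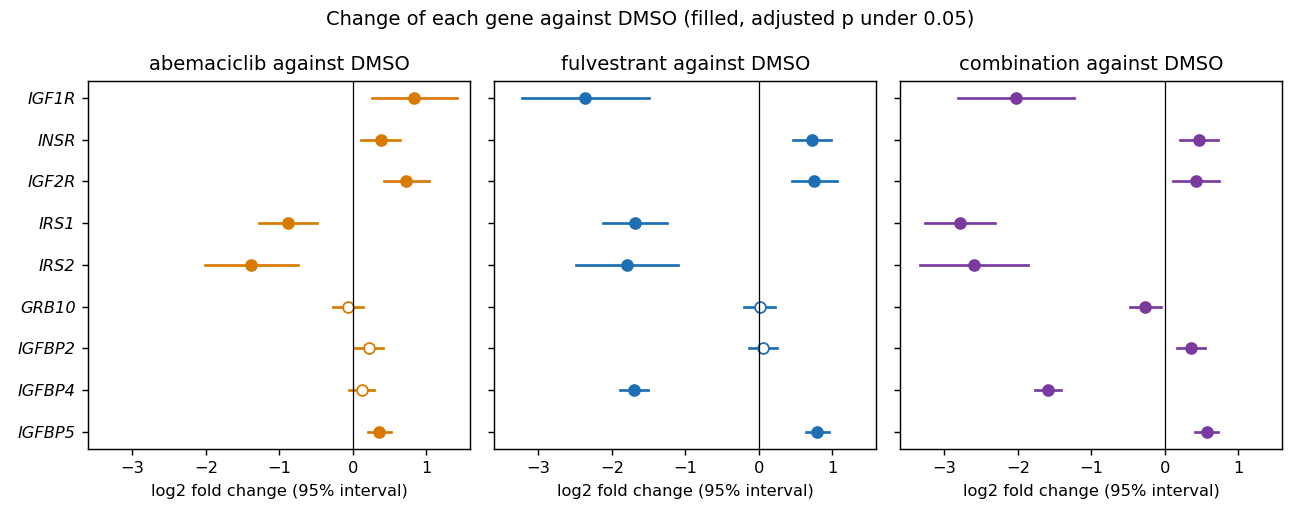
Log2 fold change of each gene against DMSO (horizontal axis) with its 95% interval, in a panel for each treated group, with filled points for adjusted p under 0.05. IRS1 and IRS2 lie left of 0 in each panel, INSR, IGF2R and IGFBP5 right of 0, and IGF1R changes side between abemaciclib (0.83) and fulvestrant (-2.36).

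To ask what fulvestrant adds to abemaciclib, the combination was compared with abemaciclib alone. IGF1R fell by 2.86 ± 0.35 on the log2 scale (SE; adjusted p 3.3e-07), IRS1 by 1.90 ± 0.25 (1.1e-06), IGFBP4 by 1.71 ± 0.09 (1.2e-14) and IRS2 by 1.22 ± 0.42 (0.0244), and IGFBP5 rose by 0.21 ± 0.08 (0.0306). The first 3 calls held in every alternative that tested the gene. Here 1 member was called higher, where 15.9% of all genes were, and 4 lower, where 17.7% were, with a median of -0.31 over the 9. IRS2 was lost without abemaciclib replicate 2 (-1.09), abemaciclib replicate 3 (-1.20), combination replicate 2 (-1.25) or combination replicate 3 (-0.97). IGFBP5 was lost without abemaciclib replicate 1 (0.19), 2 (0.23) or 3 (0.22) and without combination replicate 1 (0.17) or combination replicate 2 (0.19), so that 3 members were called without abemaciclib replicate 2, abemaciclib replicate 3 or combination replicate 2. The value for IGF2R was -0.31 (95% interval -0.60 to -0.01, adjusted p 0.103), and it passed with only the groups compared and without combination replicate 1 (-0.45, adjusted p 0.0283). INSR (0.09), IGFBP2 (0.13) and GRB10 (-0.20) did not pass.

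Fulvestrant and abemaciclib were also compared directly. IGF1R was lower with fulvestrant, at -3.20 ± 0.39 on the log2 scale (SE; adjusted p 3.2e-07), as were IGFBP4 (-1.82 ± 0.09, 1.1e-14) and IRS1 (-0.80 ± 0.23, 0.0091). IGFBP5 was higher by 0.44 ± 0.08 (6.4e-05) and INSR by 0.34 ± 0.12 (0.0380). The background was 13.4% of all genes higher, beside 2 members, and 15.5% lower, beside 3. The INSR call was lost in 8 of 12 alternatives, among them DESeq2 and leaving out abemaciclib replicate 1 (0.37), 2 (0.36) or 3 (0.29) or fulvestrant replicate 1 (0.29) or 2 (0.31). IGF2R, at 0.03 (95% interval -0.26 to 0.32), and IRS2, at -0.41 (-1.21 to 0.38), did not pass.

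What abemaciclib adds to fulvestrant was measured by the combination against fulvestrant alone. Of the 9 members only IRS1 was called, lower by 1.10 ± 0.28 on the log2 scale (SE; adjusted p 0.0373), where 1.63% of all genes were called lower and 0.297% higher. At an unadjusted p under 0.05, 1 member was higher and 4 were lower, and DESeq2 called none of the 9. The share of all genes at that unadjusted threshold was not counted, so whether the members exceed it cannot be read from these counts. The IRS1 call was lost in 7 of 11 alternatives, namely DESeq2 (-1.13, adjusted p 0.0740), only the groups compared (-1.11, 0.190) and leaving out fulvestrant replicate 1 (-1.14) or 2 (-0.95) or any combination replicate (-0.98, -1.27 and -1.10). In the other direction, IGF2R (-0.49, adjusted p 0.0253) and IGFBP5 (-0.26, 0.0217) were called without fulvestrant replicate 3. The intervals of the members that did not pass were wide for IGF1R (0.33, 95% interval -0.77 to 1.44) and IRS2 (-0.80, -1.72 to 0.12) and narrow for IGFBP4 (0.11, -0.09 to 0.31).

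Whether abemaciclib acted differently in the presence of fulvestrant was tested by the interaction, the log2 change from fulvestrant to the combination minus that from DMSO to abemaciclib. It was negative for IGF2R (-1.06 ± 0.21 SE, adjusted p 5.9e-04), INSR (-0.63 ± 0.18, 0.0115) and IGFBP5 (-0.58 ± 0.11, 2.7e-04), and all 17 alternatives kept the call for each of the 3. None was called positive, where 9.49% of all genes were, and 3 of the 9 were negative, where 11.6% were. No member was positive at an unadjusted p under 0.05, and DESeq2 called 3 members in all, both without a count over all genes to set beside them. Without fulvestrant, abemaciclib raised IGF2R from a mean of 29.2 to 48.7 CPM, INSR from 31.8 to 41.6 CPM and IGFBP5 from 6466 to 8275 CPM. With fulvestrant the means went from 49.9 to 39.4, from 52.8 to 44.3 and from 11189 to 9594 CPM, differences that did not pass on their own. For IGF1R the interaction was -0.50 (95% interval -1.79 to 0.79, adjusted p 0.620), so at this depth a difference in its abemaciclib response was not detectable. IRS1 (-0.22, -0.91 to 0.48), IRS2 (0.58, -0.58 to 1.73), IGFBP2 (0.07, -0.20 to 0.35), IGFBP4 (-0.01, -0.27 to 0.25) and GRB10 (-0.21, -0.50 to 0.09) did not pass.

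**Figure D4:**
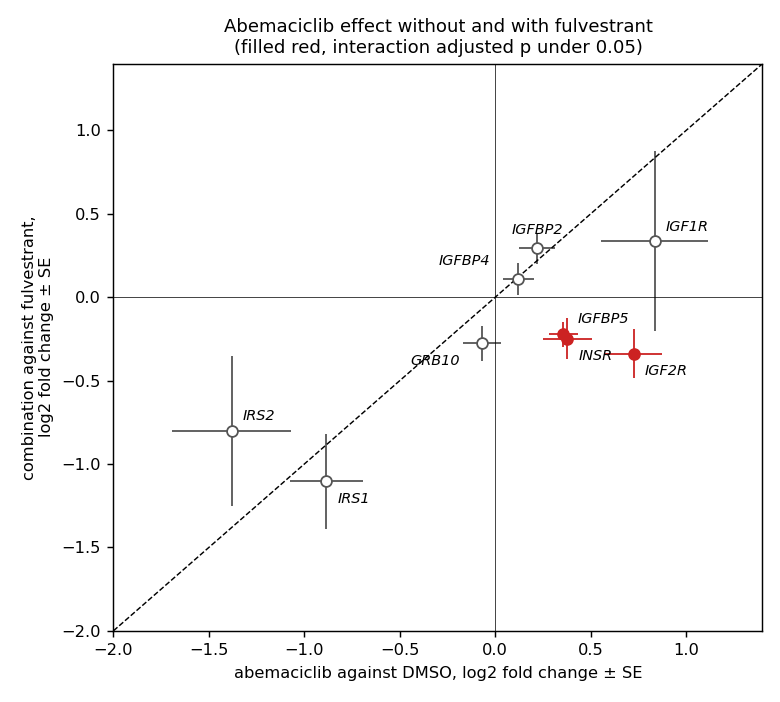
Log2 fold change ± SE of each gene with abemaciclib in the absence of fulvestrant (horizontal axis) and in its presence (vertical axis), with a dashed line where both are equal. The 3 red points, IGF2R, INSR and IGFBP5, are right of 0 and below 0, and their interactions of -1.06, -0.63 and -0.58 passed the test.

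The likeness of expression patterns is given as a description over the 12 libraries, which share their treatment groups. Among the members, log2 CPM of IGF1R and IGFBP4 had r = 0.92, IRS1 and IRS2 0.88, INSR and IGFBP5 0.85, and IGFBP4 and IGFBP5 -0.82. Across all genes tested, those most like IRS1 were CDC45 (r = 0.99), BUB1B and CDKN3 (0.99 each), which act in DNA replication and mitosis. Those most like IGF1R were DUS1L, NPC2 and PTGER3 (0.96 to 0.97), and those most like IGFBP4 were MICB, CXCL12 and TSKU (0.99 each). IRS2 was nearest to SLC25A5, HMGA1 and PSMA5 (0.97 to 0.99), INSR to SH3BP4, ESYT2 and ZNF708 (0.95 to 0.96), and IGFBP5 to PRLR, the prolactin receptor gene, NPNT and ALDH2 (0.97 to 0.98). IGF2R was nearest to MT-CO1, EVPL and MT-CYB (0.95 to 0.96), of which MT-CO1 and MT-CYB are mitochondrial transcripts. The nearest genes of IGFBP2 (SELENOW, FAM120A and RPS6KA2, 0.88 to 0.90) and GRB10 (C21orf91, ANKRD44 and STK10, 0.81 to 0.84) were less close.

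The rest of the pathway was taken from a list of 95 further genes, of which 74 were tested. Few or no reads were counted for the ligands. Genes that overlap the ligands were not examined, so these low counts are not read as absence of the transcripts. IGF1 had at most 4 reads in a library and group means between 0.176 and 0.600 CPM, and IGF2 and INS had none in any library, where 3 reads would correspond to 0.570 to 0.890 CPM. Abemaciclib raised 19 of the 74 and lowered 12, fulvestrant raised 22 and lowered 14, and the combination raised 25 and lowered 14 against DMSO, with medians of 0.09, 0.09 and 0.10. As shares of the 74 these were 25.7% and 16.2%, 29.7% and 18.9%, and 33.8% and 18.9%, beside the backgrounds given above. Fulvestrant against abemaciclib gave 14 higher (18.9%, beside 13.4% of all genes) and 7 lower (9.46%, beside 15.5%), led by PIK3IP1 (1.00), DDIT4 (0.94) and FOXO3 (0.88) and by STC2 (-3.29), SOCS3 (-1.47) and INPP4B (-0.63). The combination against abemaciclib gave 15 higher (20.3%, beside 15.9%) and 10 lower (13.5%, beside 17.7%), led by PIK3IP1 (1.21), DDIT4 (0.93) and FOXO3 (0.81) and by STC2 (-3.58), SOCS3 (-1.41) and RACK1 (-0.66). Between the combination and fulvestrant none of the 74 was called (edgeR), 11 had an unadjusted p under 0.05 and DESeq2 called 0. For the unadjusted count no share of all genes was taken, so it is not read as a result about the list. Where genes are named below that are neither the strongest of their comparison nor members, they were picked after their values were seen.

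Of the 3 genes tested among the other binding proteins and their regulators, the stanniocalcin genes STC1 and STC2 were the abundant ones. STC2, which inhibits the protease PAPPA that cleaves IGFBP4, had 91.4, 112.9 and 118.0 CPM in DMSO, 439.4, 368.9 and 346.9 with abemaciclib, 42.3, 38.4 and 37.1 with fulvestrant and 26.5, 32.7 and 36.7 in the combination. Abemaciclib lay above all other groups, and both groups with fulvestrant lay below DMSO. Its log2 fold change was 1.84 ± 0.11 (SE; adjusted p 1.9e-12), -1.46 ± 0.12 (4.6e-10) and -1.75 ± 0.12 (1.5e-11) in the 3 treated groups, and the interaction was -2.12 ± 0.17 (6.3e-09). STC1, the related inhibitor, fell in all 3, from 88.8 ± 4.24 CPM to 30.0 ± 0.450, 41.2 ± 2.95 and 31.3 ± 2.79 CPM (log2 fold changes -1.57, -1.11 and -1.50). PAPPA itself had no reads. IGFBP3, the third tested gene of this group, was called higher in all 3, with group means of 0.168 CPM in DMSO, 1.35 with abemaciclib, 2.17 with fulvestrant and 1.90 in the combination. Its DMSO libraries held at most 1 read, so no fold is given.

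In the PI3K arm, 6 of 14 tested genes rose with abemaciclib, and 7 rose and 1 fell both with fulvestrant and in the combination. The shares higher were 42.9%, 50% and 50%, beside 20.5%, 25.3% and 27.7% of all genes, and the single fall was 7.14%, beside 25.7% and 27.5%. The median log2 fold changes of the 14 were 0.30, 0.26 and 0.43. PIK3IP1, an inhibitor of PI3K, had 7.12, 7.22 and 6.41 CPM in DMSO, 25.6, 26.7 and 26.8 with abemaciclib, 58.1, 57.0 and 43.8 with fulvestrant and 54.4, 67.0 and 61.6 in the combination. DMSO, abemaciclib and the groups with fulvestrant were separate from each other. PIK3IP1 rose by 1.93 ± 0.17 (SE; adjusted p 5.3e-10), 2.93 ± 0.16 (1.2e-14) and 3.14 ± 0.16 (9.3e-16), with an interaction of -1.72 ± 0.21 (9.2e-07). PIK3R1 and PIK3R3, regulatory subunits of PI3K, rose by 1.41 and 0.90 with abemaciclib, 1.22 and 1.23 with fulvestrant, and 1.47 and 1.20 with both. PIK3CB and PIK3C2B, which encode catalytic subunits, rose in all 3 by 0.42 to 0.60 and by 0.82 to 1.35. INPP4B, a lipid phosphatase, rose with abemaciclib (0.54), AKT2 rose with fulvestrant (0.48) and in the combination (0.49), and the AKT phosphatase gene PHLPP1 fell in both (-0.61 and -0.62).

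Further downstream, DDIT4, an inhibitor of mTORC1, rose by 0.83, 1.76 and 1.76 on the log2 scale with abemaciclib, fulvestrant and both, to 42.5 ± 4.94, 81.6 ± 6.04 and 81.0 ± 9.38 CPM from 23.8 ± 2.78 (mean ± SD, n = 3). SESN2, another inhibitor, rose in all 3 (0.69, 0.82 and 1.07), whereas RHEB, the activator of mTORC1, and EIF4EBP1, the translational repressor that mTORC1 phosphorylates, fell in all 3 (-0.78, -0.68 and -0.78 for RHEB, and -0.85, -0.61 and -1.11 for EIF4EBP1). The AKT-regulated transcription factor gene FOXO1 rose in all 3 (0.84, 1.24 and 1.14), and FOXO3 rose with fulvestrant (1.14) and both drugs (1.08). GSK3B also rose in all 3, GSK3A fell with abemaciclib (-0.34), and TBC1D4 fell with fulvestrant (-0.42) and both (-0.41). Of the 7 AKT substrates tested, 2, 3 and 3 were called higher (28.6%, 42.9% and 42.9%) and 1 lower in each (14.3%). In the mTOR arm, 3, 3 and 4 of 16 were higher (18.8%, 18.8% and 25%) and 3, 2 and 2 lower (18.8%, 12.5% and 12.5%). The shares of all genes were 20.5%, 25.3% and 27.7% higher and 20.7%, 25.7% and 27.5% lower. In the RAS arm of 10 genes, HRAS fell in all 3 (-1.02, -0.93 and -0.86), and MAPK3, which encodes ERK1, fell with abemaciclib (-0.44) and both (-0.22).

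Negative regulators of the receptors were mixed. SOCS3, a feedback inhibitor that binds both kinase receptors, had 16.3, 24.7 and 19.4 CPM in DMSO, 52.0, 60.3 and 61.7 with abemaciclib, 21.7, 24.5 and 16.6 with fulvestrant and 21.2, 22.3 and 21.9 in the combination. It was high in the abemaciclib libraries and overlapped DMSO in the others (1.50 ± 0.15 with abemaciclib, adjusted p 3.1e-09, and interaction -1.43 ± 0.22, 2.5e-05). PTPRF, a receptor phosphatase, rose by 0.93, 1.42 and 1.44, and ENPP1, an inhibitor of the insulin receptor, by 0.94, 1.55 and 1.13, while the phosphatase PTPN2 fell by 0.63, 0.82 and 1.03. The adaptor DOK1 fell in all 3 (-1.05, -2.55 and -2.78), with 11 to 19 reads per library in DMSO and 1 to 5 in the groups with fulvestrant, and GAB1 rose in all 3 (0.61, 0.63 and 0.80). FURIN, the protease that processes both receptor precursors, rose by 0.81, 1.09 and 1.13, and NEDD4, a ubiquitin ligase that acts with GRB10 on IGF1R, fell by 0.91, 0.79 and 0.89. Over the 74 genes the interaction was called positive for 7 (9.46%, beside 9.49% of all genes), led by STC1 (1.18), HRAS (1.09) and NEDD4 (0.81), and negative for 13 (17.6%, beside 11.6%), led by STC2, PIK3IP1 and SOCS3.

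**Figure D5:**
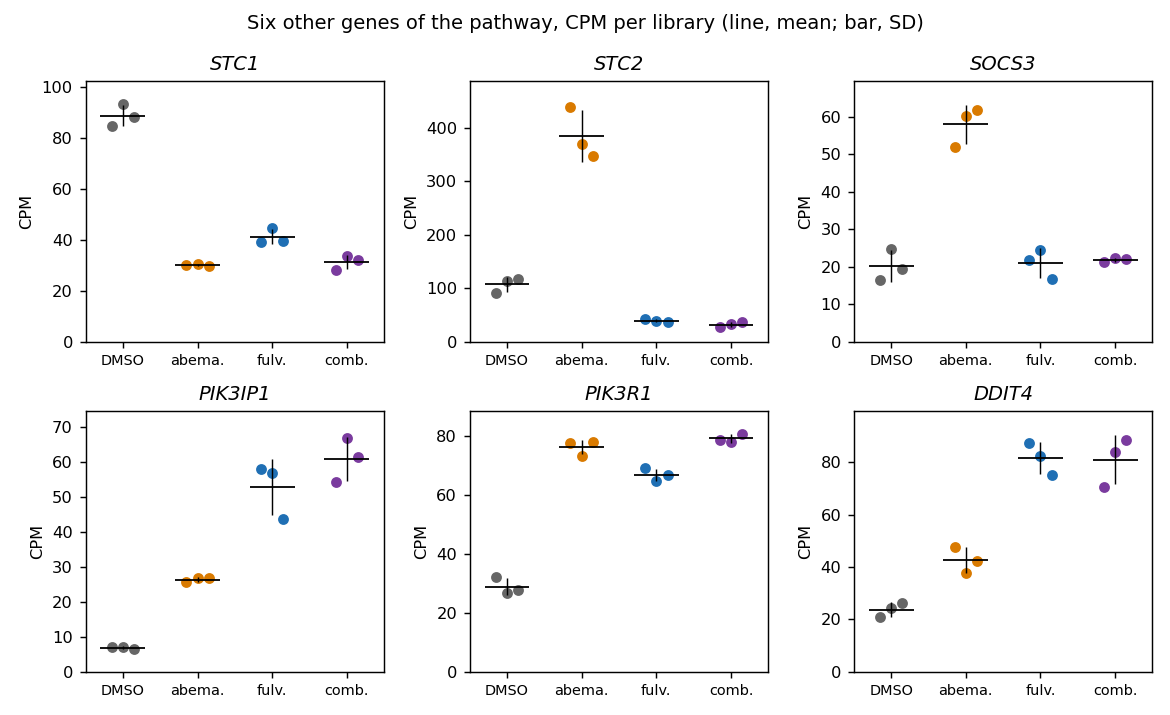
CPM (vertical axis, from 0) of STC1, STC2, SOCS3, PIK3IP1, PIK3R1 and DDIT4 in the 3 libraries of each treatment group, with a line at the mean and a bar of ± 1 SD. STC2 and SOCS3 are highest with abemaciclib alone (385 and 58.0 CPM on average), and PIK3IP1 and DDIT4 are highest in the groups with fulvestrant.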

How the data were processed

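The deposited values are raw counts of reads per gene symbol in 12 libraries. The authors trimmed reads of 100 bases with BBDuk 38.90, aligned them to GRCh38 with STAR 2.7.5b and counted them with featureCounts (Subread 2.0.1) on GENCODE 35. Whether counting used the strand is not given in the sources used here. Of 10 annotated genes overlapping a member, the 3 matched by symbol had at most 10 reads in all. The 44 unnamed rows held 0 reads.

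Groups came from the treatment labels. In R 4.3.3 with edgeR 4.0.16, 1 model of 4 group means was fitted to all libraries after filterByExpr (minimum count 10, minimum total 15) and TMM scaling, with robust quasi-likelihood F tests adjusted over 11803 genes at 0.05. Standard errors were derived from F. Alternatives were DESeq2 1.42.0, other scaling and filters, a replicate block, only the groups compared, and each library left out. Members and lists were chosen with earlier results of these data known. By rule the text names the 9 members, the 3 genes most correlated with each called member and the ligands. The rule adds, per comparison and direction, up to 3 called pathway genes with the largest change and at least 10 CPM in a group. Further pathway genes named in the text were picked outside this rule after their values were seen. Of these, DOK1, ENPP1 and IGFBP3 had means under 10 CPM in all 4 groups, and FOXO1, PTPN2 and PHLPP1 in some groups. The model was tested on simulated data. Coordinates are from GENCODE 44 and upstream sequences from RefSeq, in both of which all 9 members matched (IGFBP2 and GRB10 with several starts). Some genes of the pathway list are not reported here by name.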

Additional observations from a re-analysis of the deposited data

Results flagged for a closer look

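The response to abemaciclib differed with and without fulvestrant for 3 members. The interaction on the log2 scale was -1.06 for IGF2R, -0.63 for INSR and -0.58 for IGFBP5. In each case the mean level rose from DMSO to abemaciclib and was lower in the combination than with fulvestrant alone, while the fall by itself did not pass the test over all libraries. The call was kept in all 17 alternatives for each gene, with ranges of -1.22 to -0.87 for IGF2R, -0.79 to -0.53 for INSR and -0.64 to -0.52 for IGFBP5. Both groups with fulvestrant started from levels above DMSO, and its part in the difference was not tested.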

How the results depend on the processing

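Over the 63 gene-by-comparison values of the members, alternatives left 714 values on the same side of the threshold with the same sign, 41 lost a call, 8 gained one and 16 changed sign, none of the last called in the fit to all libraries. Median-of-ratios factors changed no call. With at least 10 counts in every library, members called were 3 for abemaciclib and 4 for fulvestrant against DMSO, 2 for the combination and 3 for fulvestrant against abemaciclib and 0 for the combination against fulvestrant, because IGF1R, IRS1 and IRS2 fall below this minimum, and genes called in the last comparison were 91, against 227 in the fit with the usual filter. A fit to only the groups compared gave 125 genes and 0 members there, and DESeq2 0 members. Leaving out 1 library, that comparison gave 146 to 588 genes and 0 to 3 members, the upper values without fulvestrant replicate 3, and the combination against abemaciclib gave 3 to 5 members.

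Some signs changed when 1 library was left out. For these values the ranges over all alternatives were -0.043 to 0.13 for IGFBP2 and -0.048 to 0.048 for GRB10 in fulvestrant against DMSO. In fulvestrant against abemaciclib the ranges were -0.17 to 0.18 for IGF2R and -0.80 to 0.020 for IRS2. The range for IGF1R in the combination against fulvestrant was -0.12 to 1.48. In the interaction the ranges were -0.95 to 0.64 for IGF1R, -0.019 to 0.18 for IGFBP2 and -0.094 to 0.021 for IGFBP4. The cause of the sign changes was not tested. For the 74 pathway genes DESeq2 called 28, 33 and 35 against DMSO for abemaciclib, fulvestrant and both, with no adjusted p for 8, 4 and 3 of them. The share of all genes that DESeq2 called is not given here, so these counts are not read as a result about the pathway.

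Labels give each group the replicate numbers 1 to 3, but same-numbered libraries did not deviate together (r from -0.215 to 0.119, above 0.1 in 2 of 18 pairs, with 5 of 12 libraries closest to their own number). With the replicate as a block, members called were 6, 7 and 9 against DMSO for abemaciclib, fulvestrant and both, 5 and 4 for the combination and fulvestrant against abemaciclib, 1 for the combination against fulvestrant and 3 for the interaction. The call lost was INSR in fulvestrant against abemaciclib (0.34, adjusted p 0.0511). IGF1R in the groups with fulvestrant and IRS2 in the combination rest on at most 11 reads per library, which sets how finely their changes can be read.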
